A study of Mus musculus with 7 samples.

Results

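The let-7 family of microRNAs (miRNAs) was followed through its 8 mature guide (5p) strands, let-7a-5p to let-7g-5p and let-7i-5p, in Argonaute 2 (Ago2) complexes circulating in mouse plasma. Members were taken by name from the table of read counts, without a filter on their values, and all 8 were present among the 640 mature miRNAs counted. The family was chosen with earlier results of these data known. Small RNA was sequenced after immunoprecipitation of Ago2, the protein that holds a miRNA and guides it to its targets, from the plasma of adult male C57BL/6JOlaHsd mice (strain c57 in the labels). Mice received kainic acid (KA) into the amygdala through a cannula, which triggered status epilepticus (SE, a prolonged seizure), or PBS as control. KA mice were also given midazolam or lorazepam to limit mortality. Plasma was taken at 4 h, 8 h and 24 h from both groups, and 2 weeks after SE from KA mice. The 2-week control failed library quality control in the study, so SE 2 weeks was compared with control 24 h, as the study did. Each of the 7 libraries was a single pool of plasma from 10 mice.

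The let-7 miRNAs are among the most conserved animal miRNAs. They recognise target mRNAs through a shared seed near the 5′ end, they accumulate as cells differentiate, and the RNA-binding protein LIN28 blocks the processing of their precursors. They are abundant in adult brain and also in blood and most other tissues, so a plasma level does not name a source. Extracellular let-7b has been described as a ligand of the RNA sensor TLR7 through its GU-rich stretch.

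The mature sequences are shown because the members differ by so few bases that read assignment between them matters for every value that follows. Sequences are from RefSeq (GRCm38.p6), where all 8 members were matched, and run 5′ to 3′. Capitals mark the seed, bases 2 to 8.
let-7a-5p: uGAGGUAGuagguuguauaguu
let-7b-5p: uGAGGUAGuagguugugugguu
let-7c-5p: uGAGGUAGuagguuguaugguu
let-7d-5p: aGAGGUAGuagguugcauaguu
let-7e-5p: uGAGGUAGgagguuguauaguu
let-7f-5p: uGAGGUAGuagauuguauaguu
let-7g-5p: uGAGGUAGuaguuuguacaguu
let-7i-5p: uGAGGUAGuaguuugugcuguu
miR-98-5p, which is outside the 8 members but has the same seed: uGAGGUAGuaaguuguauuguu

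Every member was 22 nt long, and 15 of the 22 positions were the same in all 8. Counted from 1 at the 5′ end, with the base of let-7a-5p first, let-7c-5p differed by A19G alone, let-7e-5p by U9G and let-7f-5p by G12A. let-7b-5p carried A17G and A19G, let-7d-5p carried U1A and U16C, and let-7g-5p carried G12U and U18C. The most distant from let-7a-5p was let-7i-5p, with G12U, A17G, U18C and A19U. Of the 28 pairs of members, 4 differed by 1 base and 12 by at most 2, which is the number of mismatches the aligner allowed. Linked at 1 mismatch, let-7a, let-7b, let-7c, let-7e and let-7f formed a single group, and at 2 mismatches all 8 did.

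The GUUGU motif, searched on the mature strand only, was found in 4 members (let-7a, let-7b, let-7c and let-7e). It occurred in 2.03% of 1679 mature mouse miRNAs. The longer GUUGUGU, which contains it, was found in let-7b-5p alone among the members and in 0.119% of mature miRNAs. The 4 members with GUUGU made up 18.6 to 25.6% of let-7 5p counts in the control libraries and 17.0 to 20.8% in the acute SE libraries (4, 8 and 24 h), ranges that overlapped.

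The hairpins that give these strands were spread over several chromosomes (GRCm38, GENCODE M21 genes). Mirlet7a-1, Mirlet7f-1 and Mirlet7d lay within 2261 bp on chromosome 13 (chr13:48536012-48538272), each in an exon of the lincRNA 6720427I07Rik. Mirlet7c-2 and Mirlet7b lay within 801 bp on chromosome 15 (chr15:85706603-85707403), in exons of Lncppara. Mirlet7f-2 and Mir98 lay within 976 bp in an intron of Huwe1 on chromosome X. The 2 members to which the composition results below turn each had a single hairpin. Mirlet7i lay at chr10:122985640-122985724, in an exon of the transcribed pseudogene D630033A02Rik. Mirlet7g lay at chr9:106178840-106178927, in an intron of Wdr82.

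Total counts were between 2043220 (control 4 h) and 5405357 (SE 4 h). With 1 library per condition no difference at a single time-point has a replicate check, and a comparison of 2 libraries compares those libraries, not the conditions. Where 3 libraries a side are compared, these are different time-points and not replicates. The libraries had no molecular identifiers, so intervals cover counting error only. A single miRNA, miR-486b-5p, which is abundant in red blood cells, took 62.5 to 76.1% of all counts. Control 4 h stood apart with the lowest total and 232 miRNAs counted, against 314 to 399 in the others. Of the markers of other sources, the liver miRNA miR-122-5p was at 0 to 17.8 CPM (read counts scaled to a common library size with TMM, edgeR's trimmed mean of M-values, here and below). The summed leukocyte list was 4690 to 10187 CPM in control and 5734 to 10029 CPM in SE, and 4 of its 5 miRNAs passed 50 CPM in a library. The summed neuron list was 1142 to 2286 CPM in control and 1361 to 1969 CPM in SE, most of it miR-128-3p, while miR-124-3p was at 0 counts in every library but SE 24 h, at 17.5 CPM. The platelet and endothelial pair (miR-126a-3p and miR-126a-5p) summed to 1207 to 2275 CPM in control and 1756 to 2530 CPM in SE. Of the 5 muscle miRNAs listed, 2 were among the miRNAs counted, and miR-1a-3p, miR-206-3p and miR-208a-3p were absent. The 2 found, miR-133a-3p and miR-133b-3p, summed to 92.2 to 945 CPM in control and 117 to 1562 CPM in SE. Of the other red blood cell miRNAs listed, miR-451a had only 3 to 81 counts, and miR-486a-5p was at 0 CPM in every library but SE 24 h, at 0.357 CPM. miR-144-3p was at 0 CPM in control 4 h and 155 to 414 CPM in the other libraries. In the same way miR-144-5p was at 0.574 CPM in control 4 h and 124 to 323 CPM in the others. The part of any of these sources in the results below was not tested, and the number of cells releasing a miRNA cannot be told apart from the amount released by each.

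All 8 members were well measured, with at least 885 counts in every library, and all were above the 50 CPM filter throughout. Their CPM values were set side by side, with no correction for how well each sequence was captured or how reads were assigned between members. let-7f-5p was the most abundant member in every library and stood between rank 2 and rank 6 of all miRNAs. let-7i-5p, at rank 10 to 17, was the second. let-7a-5p (rank 17 to 23), let-7c-5p (23 to 31) and let-7g-5p (33 to 48) followed, and let-7e-5p, let-7b-5p and let-7d-5p were the lowest, between rank 45 and rank 74. The order of the 5 most abundant members was the same in all 7 libraries, while the order among let-7e-5p, let-7b-5p and let-7d-5p varied.

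let-7f-5p, made from a hairpin on chromosome 13 and another on X, had 19029, 24444 and 28449 CPM in control at 4, 8 and 24 h. Its levels after SE were 22151, 14424 and 26283 CPM at the same times and 25528 CPM at 2 weeks. The lowest library was SE 8 h, and all other SE libraries lay inside the control range. let-7a-5p, the member that gives the others their reference sequence, had 5088, 4351 and 5218 CPM in control and 3724, 2670, 4799 and 4985 CPM after SE, in the same order of times. SE 4 h and SE 8 h were below its control range and the later 2 SE libraries were inside it.

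let-7i-5p had 5789, 8056 and 9545 CPM in control, and 8160, 5202, 11031 and 10849 CPM after SE. SE 8 h was below every control library and SE 24 h and SE 2 weeks were above every one, so the groups overlapped widely. let-7g-5p, the member that shares G12U and U18C with let-7i-5p, had 1194, 1235 and 1662 CPM in control against 1017, 664, 1076 and 1189 CPM after SE. All SE libraries were below all control libraries, although SE 2 weeks and control 4 h were nearly the same.

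let-7c-5p had 2290, 2358 and 3009 CPM in control and 2141, 1683, 1989 and 2131 CPM after SE. Its cluster partner let-7b-5p had 855, 579 and 647 CPM in control and 461, 544, 501 and 494 CPM after SE. For both, every SE library lay below every control library. let-7d-5p had 508, 293 and 547 CPM in control and 340, 261, 339 and 373 CPM after SE, and let-7e-5p had 887, 492 and 527 CPM against 651, 499, 669 and 507 CPM. These last 2 overlapped between the groups, with the widest spread among controls of all members.

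**Figure D1:**
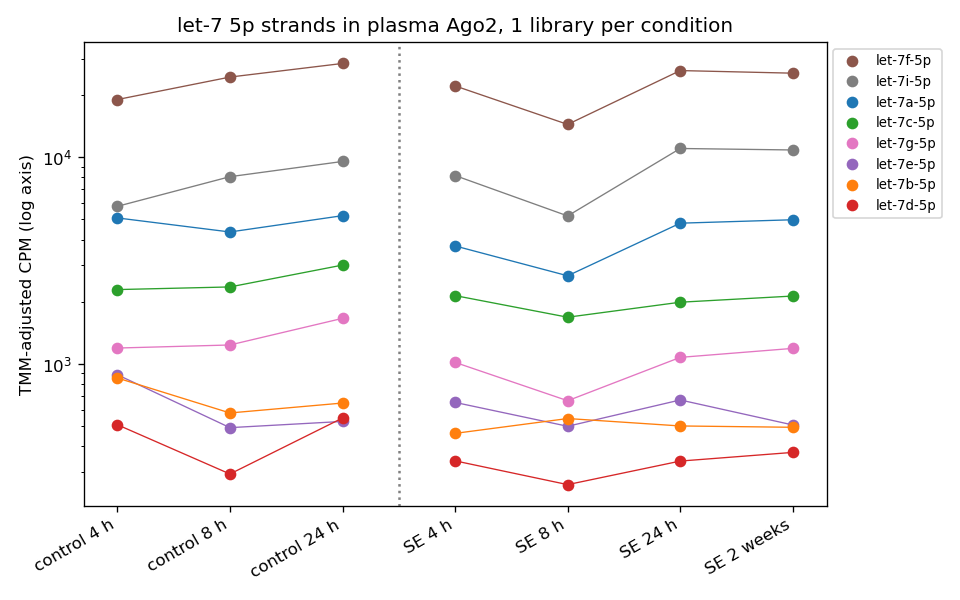
TMM-adjusted CPM (log axis) of the 8 let-7 5p strands in each library, 1 point per library, with lines joining libraries of the same treatment. let-7f-5p is highest throughout, from 14424 to 28449 CPM, and SE 8 h is the lowest library for let-7a, let-7c, let-7d, let-7f, let-7g and let-7i.

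The levels of 3 of the 8 members (let-7b, let-7c and let-7g) were thus lower in all 3 acute SE libraries than in all 3 control libraries. Of the 136 miRNAs that reached 50 CPM in at least 3 of these 6 libraries, 7.35% lay below in this way and 9.56% above. No member lay above. The same 3 members lay below with scaling by library size, with DESeq2 size factors and with miR-486b-5p left out of the totals, where 6, 4 and 5 members did in all, and let-7f-5p and let-7i-5p did not lie below under any of these. With SE 2 weeks included, let-7b, let-7c and let-7g still lay below under each scaling except library size, where only let-7b-5p did. The share over all miRNAs was taken with TMM and the acute libraries only, so the counts under other scalings or with SE 2 weeks have none beside them. Library size alone moved the 24 h median of all miRNAs tested by -0.67 log2 units. The members' differences between acute SE and control did not pass a test against the spread. In edgeR's quasi-likelihood test of 3 acute SE against 3 control libraries, 0 of 8 members passed an adjusted p of 0.05 and 0 had an unadjusted p under 0.05. let-7g-5p alone had an unadjusted p under 0.05 in 5 alternative fits, between 0.0308 and 0.0452, with an adjusted p of at least 0.295 in each. Of all 136 miRNAs, 0 passed the adjusted threshold and 15 (11%) the unadjusted one, and DESeq2 called 4 at its adjusted threshold, with 0 members among them. let-7g-5p came nearest, with a log2 fold change of -0.60 (standard error 0.29) and an adjusted p of 0.471. let-7i-5p was at 0.02 (standard error 0.32, adjusted p = 0.977), and the other 6 had adjusted p between 0.602 and 0.959. These standard errors were derived from the fold change and the test statistic.

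At each time-point the question was which members differed between SE and its control library. A change of at least 1.5-fold was called, without a test, for any miRNA that reached 50 CPM in 1 of the libraries compared. The fold cutoff is the study's, and 50 CPM is the level at which the study took a miRNA as present when it assigned organs. The p-value that the study also required for a change, from an assumed variation between replicates, was not used here. At 4 h, 1 of 8 members was lower in SE, where 34.9% of 189 miRNAs were lower and 32.3% were higher. This was let-7b-5p, with a log2 fold change of -0.89. let-7d-5p fell just short of the threshold at -0.58, and the remaining members were between -0.45 and 0.50. The largest positive value was that of let-7i-5p, which was at 0.02 against control 8 h and -0.23 against control 24 h. In either direction, 67.2% of the miRNAs passed the threshold. The call for let-7b-5p was lost against the mean of the 3 control libraries, where it was at -0.57, and against control 8 h. let-7d-5p joined it with library size or DESeq2 size factors (2 members), let-7a, let-7d and let-7e with TMM over the 2 libraries alone (4 members), and against control 24 h let-7d and let-7g were lower instead. Over all miRNAs, 55 of 165, 69 of 184, 62 of 167 and 34 of 154 were lower under these settings, in the same order.

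At 8 h, 4 of 8 members were lower in SE, against 14.9% of 154 miRNAs, and 0 were higher, against 35.1%. The 4 were let-7g-5p at -0.90, let-7f-5p at -0.76, let-7a-5p at -0.70 and let-7i-5p at -0.63. let-7c-5p was at -0.49, let-7d-5p at -0.17, let-7b-5p at -0.09 and let-7e-5p at 0.02. The median over the 8 members was -0.56 and the median over all miRNAs tested was 0.23. All 8 members lay below the median of all miRNAs tested, with TMM and with each of the 4 other scalings tried, where the members' median minus that median was between -0.79 and -0.72. The count of 4 also held under the 4 other scalings, where between 31 of 164 and 75 of 276 miRNAs were lower. Set against control 4 h, SE 8 h gave 5 lower members, where 70 of 189 miRNAs were lower and 52 higher. let-7f-5p (-0.40) and let-7i-5p (-0.15) were not among those 5. Set against control 24 h it gave 6 lower members, where 44 of 159 miRNAs were lower and 57 higher. Both shares of lower miRNAs were above the 14.9% found against control 8 h.

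At 24 h, 3 of 8 members were lower, against 19.9% of 141 miRNAs, and 0 were higher, against 24.8%. They were let-7d-5p at -0.69, let-7g-5p at -0.63 and let-7c-5p at -0.60, all close to the threshold. let-7b-5p was at -0.37, let-7a-5p at -0.12, let-7f-5p at -0.11, let-7i-5p at 0.21 and let-7e-5p at 0.35. None of the 3 calls remained when SE 24 h was set against control 8 h or against the mean of the 3 control libraries, and let-7d-5p was then at 0.21 against control 8 h. Scaling by library size gave 6 lower members, where 75 of 144 miRNAs were lower, and moved the median of all miRNAs tested by -0.67 log2 units at the same time.

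At 2 weeks, 0 of 8 members passed the threshold, against 13.1% of 145 miRNAs lower and 18.6% higher. Values were between -0.55 (let-7d-5p) and 0.18 (let-7i-5p), with let-7c-5p at -0.50, let-7g-5p at -0.48 and let-7b-5p at -0.39. This comparison shares its control library with the one at 24 h, so the 2 sets of values are not independent. The members' medians at 4 h, 24 h and 2 weeks were -0.34, -0.24 and -0.27, beside -0.06, 0.04 and 0.01 over all miRNAs tested.

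The control libraries gave a measure of how far members moved without SE. Between control 4 h and control 8 h, 2 members (let-7d-5p and let-7e-5p) differed by at least 1.5-fold, both higher at 4 h, where 59.3% of 177 miRNAs differed, 44.1% higher at 4 h and 15.3% lower. Between control 4 h and control 24 h, let-7e-5p was higher at 4 h and let-7i-5p lower, where 69.6% of 181 miRNAs differed, 43.1% higher and 26.5% lower. Between control 8 h and control 24 h, let-7d-5p alone differed and was lower at 8 h, where 45.4% of 141 miRNAs differed, 26.2% lower and 19.1% higher. The SD of log2 levels over the 3 control libraries was 0.14 for let-7a-5p, 0.26 for let-7g-5p and 0.37 for let-7i-5p.

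**Figure D2:**
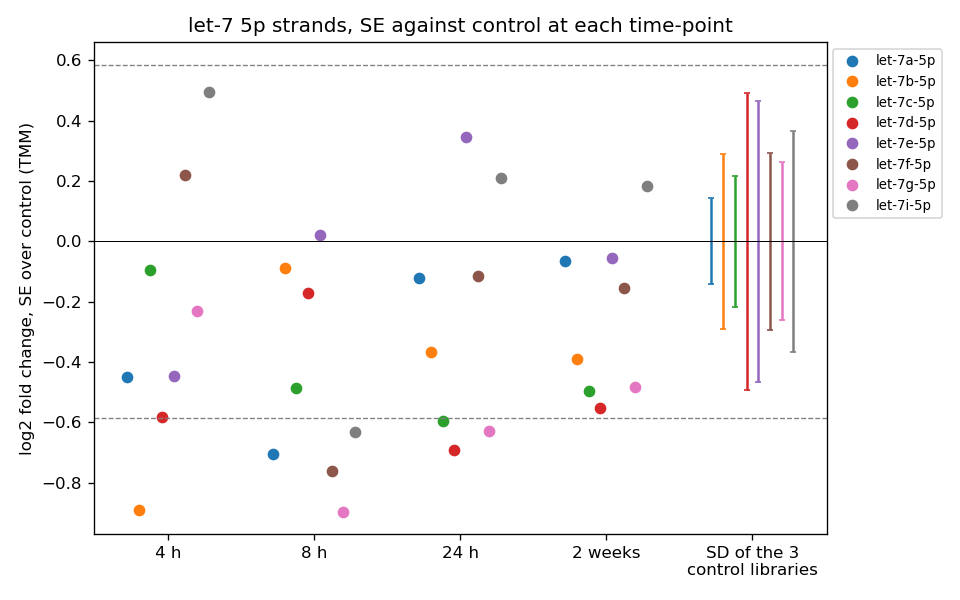
Log2 fold change of each let-7 5p strand, SE over control, at each time-point (points, 1 library against 1), with dashed lines at 1.5-fold and, at the right, the SD of log2 levels over the 3 control libraries of each member. At 8 h let-7a, let-7f, let-7g and let-7i lie below the lower line, and at 2 weeks no member is outside the lines.

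The family as a whole took a smaller share of the counts in the acute SE libraries, but not beyond the spread. The 8 strands together made up 3.04% (95% Wilson interval 3.02 to 3.06), 5.11% and 5.74% (5.71 to 5.76) of counts in control at 4, 8 and 24 h. After SE the share was 3.04%, 2.98% and 3.52%, and 5.60% at 2 weeks. SE 8 h was the lowest library and control 24 h the highest, and control 4 h was as low as SE 4 h. The mean was 4.63% ± 1.41 (SD, n = 3) in control and 3.18% ± 0.29 (SD, n = 3) in acute SE (exact two-sided permutation test, p = 0.3, where 0.1 is the smallest possible).

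With miR-486b-5p left out of the denominator, the family made up 12.7, 15.7 and 17.4% of counts in control, 9.37, 7.97 and 14.7% in acute SE, and 15.2% at 2 weeks. SE 4 h and SE 8 h were then below every control library and SE 24 h was not (exact two-sided permutation test, p = 0.2, n = 3 a side). In TMM-adjusted CPM the summed family was 35639, 41808 and 49602 in control and 38647, 25947 and 46687 in acute SE (exact two-sided permutation test, p = 0.6, n = 3 a side). SE 8 h was lower than control 8 h by each of the 3 measures, by 1.61-fold to 1.97-fold.

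**Figure D3:**
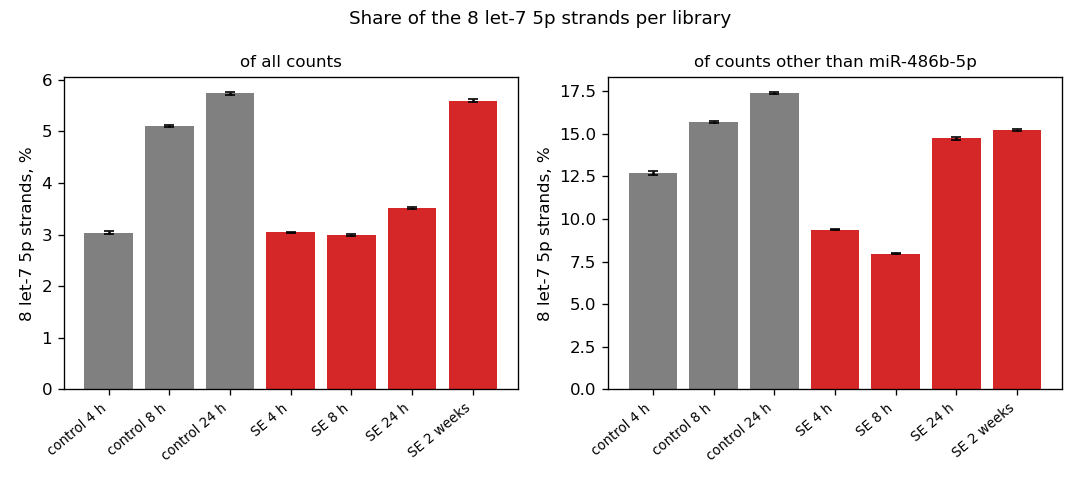
Share of the 8 let-7 5p strands in each library, in percent of all counts (left) and of counts other than miR-486b-5p (right), with 95% Wilson intervals for counting error. Control libraries are grey and SE libraries red, and SE 8 h is the lowest in both panels, at 2.98% and 7.97%.

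The composition of the family, each member's percent of all let-7 5p counts, does not depend on how libraries are scaled. let-7f-5p made up 53.4 to 58.5% in every library, with a mean of 56.4% ± 2.67 (SD, n = 3) in control and 56.4% ± 0.87 (SD, n = 3) in acute SE. It was the steadiest member, with its highest share 1.10 times its lowest. let-7e-5p varied most, by 2.34 times.

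let-7i-5p made up 16.2% (15.96 to 16.5), 19.3% and 19.2% of the family in control at 4, 8 and 24 h. After SE it made up 21.1%, 20.05% (19.8 to 20.3) and 23.6%, and at 2 weeks 23.6%. Every SE library was above every control library, and the smallest gap, between control 8 h and SE 8 h, was 0.781 percentage points. The means were 18.3% ± 1.74 and 21.6% ± 1.84 (SD, n = 3 a side), a difference of 3.35 points (exact two-sided permutation test, p = 0.1, the smallest possible, 0.267 after Benjamini-Hochberg adjustment over the 8 members).

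let-7g-5p went the other way. It made up 3.35%, 2.95% and 3.35% of the family in control and 2.63%, 2.56%, 2.30% and 2.58% in SE, in the order of the times. All SE libraries were below all control libraries. The means were 3.22% ± 0.23 and 2.498% ± 0.17 (SD, n = 3 a side), a difference of -0.72 points (exact two-sided permutation test, p = 0.1, adjusted p = 0.267).

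let-7a-5p was the third member whose acute libraries did not overlap, with 14.3, 10.4 and 10.5% in control and 9.64, 10.3 and 10.3% in SE (exact two-sided permutation test, p = 0.1, adjusted p = 0.267, n = 3 a side). Here control 4 h set the difference of -1.67 points, which was -0.39 points without that library, and SE 2 weeks, at 10.8%, lay inside the control range. The remaining members overlapped, at 1.07 to 2.40% for let-7b-5p, 4.26 to 6.49% for let-7c-5p, 0.702 to 1.43% for let-7d-5p and 1.06 to 2.49% for let-7e-5p over the 7 libraries.

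So 3 of 8 members did not overlap, where the ratio to the let-7 total did not overlap for 18.4% of the 136 miRNAs, 14% above and 4.41% below. For a member this ratio is a part of its own total, while for a miRNA outside the family it is not. The 18.4% is therefore not a like background for the members. Without control 4 h the let-7i-5p difference was 2.34 points and that of let-7g-5p was -0.65 points. With SE 2 weeks added, 4 SE libraries against 3 controls, these 2 members were again without overlap (exact two-sided permutation test, p = 0.0571, the smallest possible for 4 against 3, adjusted p = 0.229). On the centred log-ratio scale, which sets each member against the geometric mean of all 8 and so gives the rare members equal weight, no member was without overlap.

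**Figure D4:**
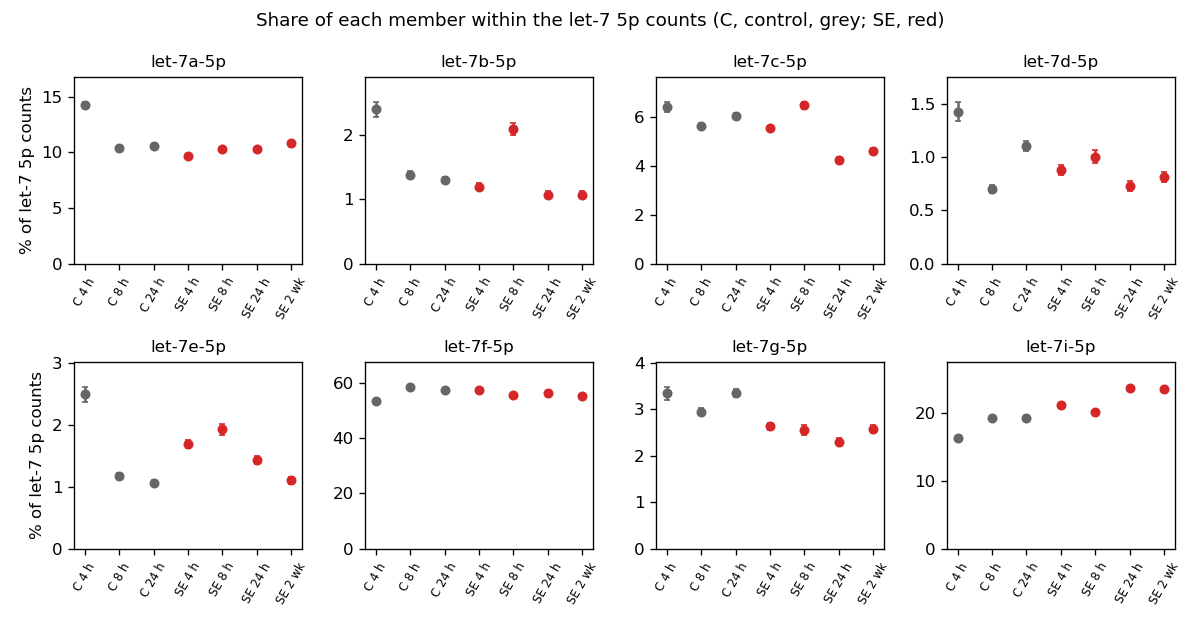
Percent of let-7 5p counts taken by each member in each library (C, control, grey; SE, red), with 95% Wilson intervals for counting error, each panel on its own axis from 0. Red points are all above grey points for let-7i-5p (20.05 to 23.6% against 16.2 to 19.3%) and all below for let-7g-5p (2.30 to 2.63% against 2.95 to 3.35%).

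The ratio of let-7i-5p to let-7g-5p, a pair chosen after the shares were seen, was 4.85, 6.52 and 5.74 in control. After SE it was 8.02, 7.84 and 10.25, and 9.12 at 2 weeks. That SE and control do not overlap here follows from the shares of both members and is no further evidence. Per read of let-7f-5p, the most abundant member, let-7i-5p had 0.304 to 0.336 reads in control, 0.361 to 0.420 in acute SE and 0.425 at 2 weeks. Since the let-7f-5p share of the family stayed between 53.4 and 58.5%, this ratio largely repeats the let-7i-5p share and is no further evidence either. Of the 28 ratios between members, 5 did not overlap between acute SE and control, a share close to the 18.9% of the 9180 ratios between any 2 of the 136 miRNAs. let-7i-5p was the higher member in 3 of these 5 and let-7g-5p the lower member in 2, a tally built from the same counts as the shares and no further evidence.

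Summed into the groups that differ by 1 base, so that reads exchanged among let-7a, let-7b, let-7c, let-7e and let-7f stay together, that group held 76.3 to 79.0% of the family in control and 73.3 to 76.4% in acute SE, ranges that overlapped. let-7i-5p and let-7g-5p stand alone at that distance, and their shares are the ones given above. They differ from each other by 2 bases, the number of mismatches the aligner allowed, and let-7g-5p is the only member that near to let-7i-5p. Reads exchanged between these 2 members are therefore not covered by this sum. Whether such exchange had a part in their opposite shifts was not tested.

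The passenger (3p) strands, normally discarded when the guide is loaded into Ago2, were nearly absent, with 1 exception. let-7d-3p had 1068, 2289 and 1392 counts in control and 2720, 1669, 1083 and 945 counts in SE from the earliest time to 2 weeks. It thus exceeded its own guide strand in 5 of 7 libraries, with a 3p to 5p ratio of 1.21, 1.81 and 0.644 in control and 1.88, 1.76, 1.14 and 0.820 after SE. The groups overlapped (exact two-sided permutation test of the acute libraries, p = 0.5, n = 3 a side). By contrast the other 7 listed 3p strands of the family had at most 102 counts in any library and 32 of their 49 values were 0. In level, let-7d-3p was 353 to 613 CPM in control and 306 to 639 CPM in SE and was not called at any time-point, with log2 fold changes of 0.06, -0.21, 0.13 and -0.20.

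**Figure D5:**
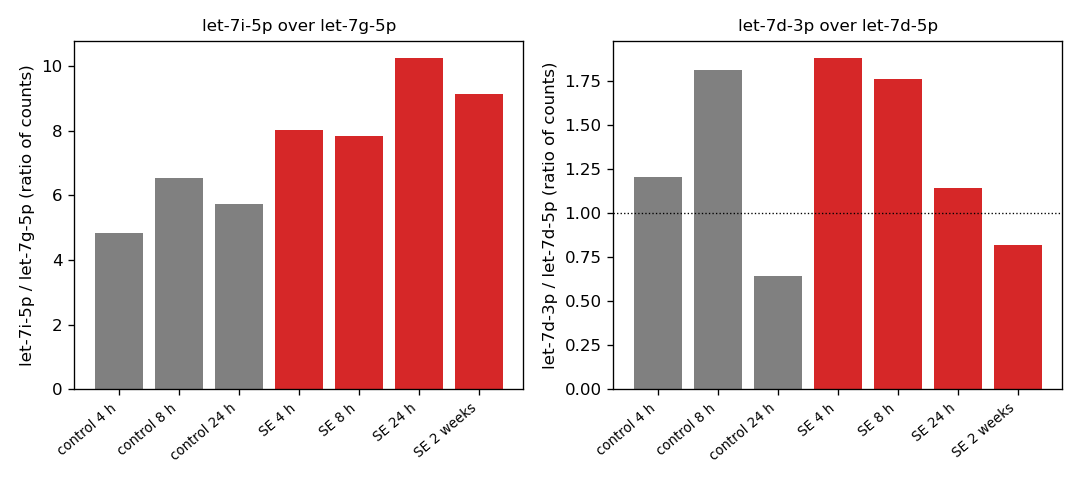
Ratio of counts of let-7i-5p to let-7g-5p (left) and of let-7d-3p to let-7d-5p (right; dotted line at 1) in each library, control grey and SE red, both axes from 0. The left ratio is 4.85 to 6.52 in control and 7.84 to 10.25 in SE, and the right one is above 1 in 5 of 7 libraries.

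Beyond the 8 members, 3 other miRNAs share the let-7 seed, and all 11 were counted. miR-98-5p, from the hairpin beside Mirlet7f-2, had 118, 1108 and 1207 counts in control and 796, 658, 879 and 916 in SE. Its log2 fold change at 4 h, 1.46, passed 1.5-fold and rested on control 4 h, the lowest library. At 8 h, 24 h and 2 weeks it was at -0.51, 0.04 and -0.04. miR-1961 had 99 counts in control 4 h and 10 in SE 4 h, a log2 fold change of -4.57 that passed 1.5-fold lower, and 0 to 158 counts over all libraries, too few to pass 50 CPM at the later times. let-7k had at most 1 count. let-7j, which was not among the seed matches, had at most 8.

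Of miRNAs made from hairpin clusters that also hold a let-7 hairpin, miR-99b-5p and miR-125a-5p, the partners of let-7e, were abundant. miR-99b-5p had 554, 382 and 176 CPM in control and 623, 296, 302 and 234 CPM in SE at the 4 times, and passed 1.5-fold at 24 h only, at 0.78. miR-125a-5p had 516, 292 and 287 CPM in control and 571, 412, 240 and 444 CPM in SE, and passed it at 2 weeks only, at 0.63. Both were highest in the 4 h libraries of each treatment. let-7e-5p was also highest in control 4 h, with 887 CPM. The partners of let-7a-2 and let-7c-1 were low, with at most 79.6 CPM for miR-99a-5p, 73.3 CPM for miR-100-5p and 154 CPM for miR-125b-5p.

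The miRNAs whose log2 levels followed the summed family most closely over the 7 libraries were miR-130b-3p (Pearson r = 0.92), miR-106b-3p (0.86), miR-181c-5p (0.83), miR-26b-5p (0.82) and miR-128-3p (0.81). They were the first 5 of 94 miRNAs that had at least 50 CPM in all 7 libraries. For let-7i-5p alone the first 3 were miR-130b-3p (0.94), miR-351-5p (0.93) and miR-142a-5p (0.89), the last a miRNA of blood cells. The 7 points share library depth and scaling, so these values are a description only.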

How the data were processed

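The 7 libraries hold small RNA recovered with Ago2 from plasma pools. The authors used Chimera (version not given in the sources used here) to remove adapters, keep miRNA-sized reads and align these by BLASTn to mouse miRBase with 2 mismatches allowed. They deposited raw counts per mature miRNA. How reads matching several let-7 members were assigned is not given in the sources used here. The submitters' processing notes name edgeR and limma.

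From the counts, CPM with TMM factors over all 7 libraries and log2 fold changes (prior count 0.125) were computed in edgeR 4.0.16 (R 4.3.3, limma 3.58.1). A change was called at 1.5-fold for miRNAs that reached 50 CPM in 1 of the libraries compared. Acute SE and control libraries were compared 3 against 3 by the quasi-likelihood test of edgeR, adjusted by Benjamini-Hochberg over the 136 miRNAs that reached 50 CPM in at least 3 libraries, and shares with exact permutation tests and 95% Wilson intervals (Python 3.11.15, scipy 1.17.1). Total counts were 2043220 to 5405357 per library. DESeq2 1.42.0, other scalings, filters, fold thresholds, controls and left-out libraries were tried as alternatives. The test code was tested on simulated data. Named miRNAs were all members, all with the same seed, let-7 3p strands, cluster partners, miR-486b-5p, marker lists and those most like the family in level. Members and lists were chosen with earlier results of these data known. Hairpin positions are from RefSeq and GENCODE M21 on GRCm38.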

Additional observations from a re-analysis of the deposited data

Results flagged for a closer look

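let-7i-5p had log2 fold changes of opposite sign at 4 h and 8 h. SE over control, it was 0.50 at 4 h and -0.63 at 8 h, each against the control library of the same hour. The value at 4 h depends on control 4 h, since SE 4 h was at 0.10 against the mean of the 3 control libraries, 0.02 against control 8 h and -0.23 against control 24 h. The value at 8 h was -0.55 against the mean of controls and -0.15 against control 4 h. Between control 4 h and control 24 h let-7i-5p differed by -0.72, more than either value. The difference between the time-points was not tested, since each value compares 1 library with 1.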

How the results depend on the processing

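Depth set no limit for the members, since all had at least 885 counts in each library, and the number of libraries did. Members called by fold at 4 h (1) became 2 with library size or DESeq2 size factors, 4 with TMM over the 2 libraries, 2 against control 24 h, and 0 at 2-fold, in the exact test at BCV 0.4 (BCV, the assumed variation between replicates), against the mean of controls and against control 8 h. The 4 at 8 h became 0 at 2-fold and at BCV 0.4. The 3 at 24 h became 6 with library size, 1 with DESeq2 size factors, and 0 at 2-fold, at BCV 0.4, against the mean of controls and against control 8 h, where let-7d-5p reversed to 0.21. The 0 at 2 weeks became 3 against control 4 h, in opposite directions. let-7b-5p (494 against 855 CPM) and let-7e-5p (507 against 887 CPM) were lower, and let-7i-5p (10849 against 5789 CPM) was higher. Between control 4 h and control 24 h alone, 69.6% of 181 miRNAs differed by at least 1.5-fold. The count over all miRNAs for SE 2 weeks against control 4 h is in the next paragraph, without the number tested. Settings chosen after seeing the data were the other control libraries, the sums at 1 mismatch, and, for shares, left-out libraries and the added 2-week library.

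Over all miRNAs, the 127, 77, 63 and 46 called from 4 h to 2 weeks, in order of time, became 218, 230, 231 and 184 at 10 CPM, 364, 302, 305 and 287 without a filter, and 58, 23, 19 and 8 at BCV 0.4. At 2-fold, 8 h, 24 h and 2 weeks gave 43, 37 and 21, and without miR-486b-5p 170, 161 and 112. Against control 4 h they gave 122, 124 and 121, and 4 h gave 83 against control 8 h. Of the calls at 24 h, 55.6% were higher, against 14.8% with library size.

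In the 3 against 3 test, 0 miRNAs passed, against 4 with DESeq2, 1 with DESeq2 size factors in edgeR, 2 without a filter, 1 with SE 2 weeks added and 0 to 2 with a library left out (2 without SE 8 h). With the time-point as a block, pairing the libraries of the same hour, 7 miRNAs passed (3 higher, 4 lower) and 0 members did, with let-7g-5p at an adjusted p of 0.295. The members' count at the adjusted threshold stayed at 0 in each of these. Members without overlap in composition (3) became 0 with the centred log-ratio and 3 to 5 with a library left out, with 5 without control 4 h or without SE 8 h. Leaving out a library can only keep or raise this count, so that range is no check of it. The family's acute SE to control ratio, 0.688, was 0.587 to 0.781 with a library left out. Summing members within 2 mismatches gave no value, since all 8 then form 1 group. The cause of these changes was not tested.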
